A study of Drosophila melanogaster with 12 samples.

Results

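The data described here are the sex comparison in 30-day-old fruit flies, Drosophila melanogaster: 3 libraries of males against 3 libraries of females, 6 of the 12 libraries of the series. The other 6 libraries hold 10-day-old males and females of the same design. All flies were w1118, a white-eyed laboratory strain, and none was treated. They were reared together on a standard medium, sorted by sex after mating when 3 days old, and then kept as males or females alone on a sugar-yeast diet. Each library is poly(A) RNA of 10 whole flies from 1 of 3 independent experiments, read as paired ends, so the adjusted p-values below measure the spread between those experiments. The study asked how far the sexes differ in gene expression. The account here covers the gene families outside immunity, maltases and insulin signalling. Groups are called males and females, and their libraries are numbered 1 to 3.

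Whole flies of the 2 sexes differ most in their reproductive organs. The testis makes sperm under a transcription programme of its own, with many genes that are copies of general cell genes. The accessory glands, ejaculatory duct and ejaculatory bulb secrete the proteins of the seminal fluid. The ovary loads the egg with RNA and protein for the first nuclear divisions of the embryo, and its follicle cells build the eggshell. In RNA of a whole fly, fewer cells of a type and less RNA per cell cannot be told apart, and a large organ lowers the share of RNA left for every other organ.

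The libraries held between 23097763 counts (male 2) and 54692004 counts (female 2), the others between 37558056 and 39876325. A gene was counted in 13090 to 14946 of the 15261 genes of the table in males and in 10219 to 11081 in females. Zeros were more frequent than such totals lead to expect from counting error: of genes that the other libraries of the sex placed at 20 to 30 counts, 32.3% were listed at 0 in male 1, 50.4% in male 3, 27.3% in female 1, 44.1% in female 2 and 14.9% in female 3, but 0.821% in male 2. Male 2 alone of the males had counts for 994 genes, among them 95 of the 123 genes listed at 0 in males 1 and 3 and counted in all females, with a median of 6 and a highest value of 47 counts. The cause was not tested. A 0 therefore does not bound a level at a few counts. Above 200 expected counts a 0 appeared 8 times over the 6 libraries, so a fold against a sex listed at 0 is given as a lower bound, against 200 counts in each library of that sex, and no fitted value is printed for it. Where a sex had 0 in some libraries and few counts in others, the fitted value and its SE are printed. The size of such a fold rests on those few counts and is no better bounded. That holds for Mst57Da, Mst87F, betaTub85D, swa and Vm26Aa, among others. The 10 most abundant genes took 20.2 to 22.4% of the counts in males and 5.49 to 12.5% in females. On log2 CPM the libraries correlated at 0.968 to 0.975 among males, 0.983 to 0.987 among females and 0.571 to 0.648 between the sexes, across genes.

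Most marker genes of sex and of the reproductive organs went with the labels. The male RNA roX1, part of the dosage compensation complex, stood at 112, 116 and 100.3 in the males and 0.0711, 0.0543 and 0.318 in the females, in FPKM, which here are fragments per kilobase of exon at the depth of the TMM-scaled library. The yolk protein gene Yp1 stood at 0.806, 1.53 and 0.348 FPKM in the males and 175, 58.1 and 84.8 FPKM in the females. All 4 accessory gland markers were listed at 0 in every female, and the 6 testis markers summed to 0.929 to 1.81 CPM in females against 1398 to 2379 CPM in males. The 6 ovarian germline markers summed to 42.1 to 46.6 CPM in males against 971 to 1482 CPM in females. Of these 6, 5 were called lower in males. The exception grk held most of the male sum, with 1435, 677 and 1483 counts in males. It had 1576, 1178 and 931 counts in females.

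Of 13013 genes tested with edgeR's quasi-likelihood test, 5973 (45.9%) were called higher in males and 3301 (25.4%) lower, at a Benjamini-Hochberg adjusted p below 0.05 and a change of more than 1 on the log2 scale. The male values lay wholly above the female values for 52.7% of the tested genes and wholly below for 32.2%. The median log2 fold change, males over females, was 1.32. Of the genes higher in males, 1819 were listed at 0 in all females, and of the genes lower in males 20 were listed at 0 in all males. The second number rests on male 2, the library with the fewest such zeros: without it, 107 genes called lower were at 0 in both other males. Among called genes with counts in both sexes, 1085 of 4154 were higher by more than 5 on the log2 scale and 180 of 3281 lower by more than 5, or 1033 and 148 without male 2. The median size was 4.78 for the higher genes, or 2.93 with the genes at 0 placed at their bound, and 2.02 for the lower genes. Among the 10673 genes with a mean of 100 counts or more, 4735 were higher and 3113 lower.

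These calls set each library on the TMM scale, which assumes that most genes do not change. Factors from 28 genes of photoreceptors, neurons and muscle, organs that both sexes have, moved the median by -3.13 to -1.82, and then 2863 genes were called higher and 6683 lower, with 508 genes going from higher to lower. The share of calls that were higher fell from 64.4% to 30.0%. The other factors moved the median by 0.17 (RLE), 0.30 (upper quartile) and -0.28 (total counts). A log2 fold change above 0 and below about 3.13 is therefore a rise on the TMM scale and a fall relative to the genes of eye, nerve and muscle. All values below are on the TMM scale unless the other is named, and each family's median is to be read against the median of all genes, 1.32. Its counts are to be read against the 45.9% of all tested genes called higher and the 25.4% called lower. The bar plot of calls by list gives the families side by side, and the plot of both scalings shows which medians cross 0.

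**Figure D1:**
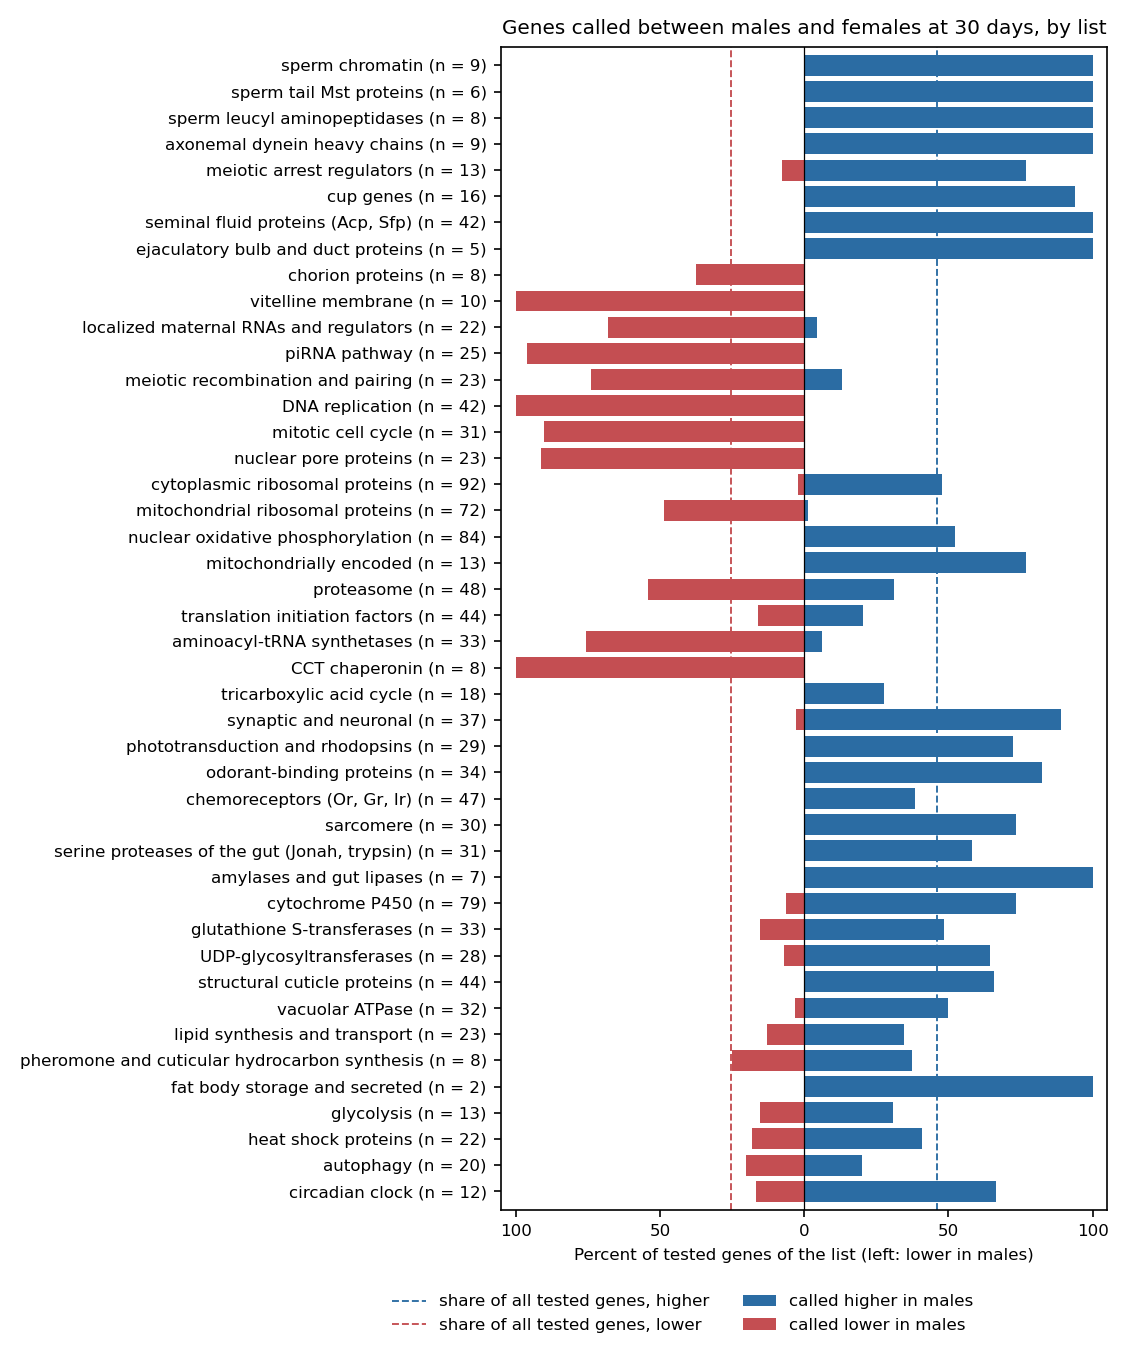
Percent of the tested genes of each list that were called higher (right, blue) or lower (left, red) in the 3 males than in the 3 females, with the shares of all tested genes as dashed lines. The lists of testis and seminal fluid reach 100% or close to it on the right (cup genes 93.8%), DNA replication and piRNA genes 100% and 96.00% on the left.

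**Figure D2:**
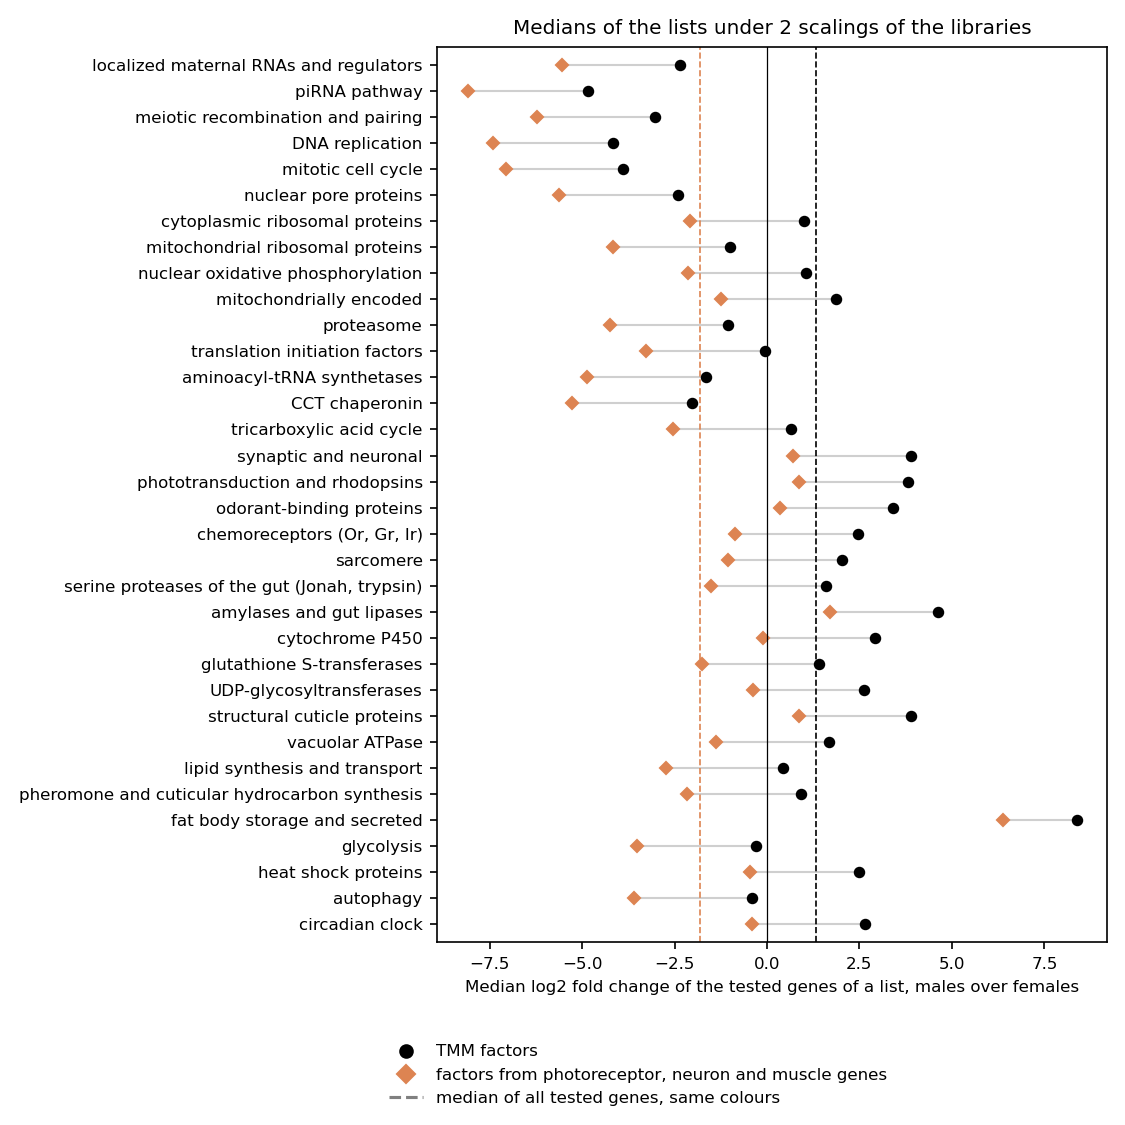
Median log2 fold change (males over females) of the tested genes of each list, those of sperm, seminal fluid and eggshell left out, with TMM factors (circles) and with factors from 28 photoreceptor, neuron and muscle genes (diamonds), dashed lines marking the medians of all genes at 1.32 and -1.82. Neural, eye, odorant-binding, cuticle, amylase and lipase, and fat body lists stay above 0 on both scalings, the first 2 holding 16 of the 28 scaling genes, the sarcomere list goes from 2.03 to -1.05 and the ribosomal list from 1.000 to -2.08.

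The genes that package and propel sperm were all higher in males. Chromatin proteins of the sperm head (the protamines ProtA and ProtB and their companions) were called higher in 9 of 9 cases, the Mst proteins of the sperm tail in 6 of 6, the sperm leucyl aminopeptidases, which fill the sperm's mitochondrial derivative, in 8 of 8, and the dynein heavy chains of the flagellum in 9 of 9. Mst77F, a linker-histone-like protein of the sperm nucleus, stood at 347, 513 and 296 FPKM in the males and 0.172, 0.311 and 0.109 FPKM in the females. Every male value was far above every female value (log2 fold change 10.86, SE 0.46, adjusted p = 6.13e-06). ProtB stood at 137, 301 and 143 FPKM in the males and was listed at 0 in the females, at least 31.1-fold higher. The highest of the sperm-tail genes was Mst87F, at 853, 1495 and 729.9 FPKM in the males and 0.661, 0 and 0 FPKM in the females (12.25, SE 1.07, adjusted p = 3.79e-05). For S-Lap1 the males gave 448, 605 and 355 FPKM and the females 0.841, 0.107 and 0.0876 FPKM (10.43, SE 0.96, adjusted p = 4.85e-05). Male 2 was the highest library for all 4 genes. Dynein heavy chains were far rarer RNAs: Dnah3 stood at 2.55, 4.07 and 3.55 FPKM in males and 0, 0.00986 and 0 in females (9.74, SE 0.93, adjusted p = 5.62e-05), and the Y-linked kl-3 at 0.164, 0.199 and 0.0747 FPKM in males with 0 in all females, where its 84, 55 and 37 male counts lie under the floor and give no fold.

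The cup genes, which are transcribed in the elongating spermatids after meiosis, were higher in 15 of 16 cases. w-cup stood at 225, 248 and 196 FPKM in the males and was listed at 0 in all females, at least 98.7-fold higher. The exception was m-cup, at 33.3, 37.3 and 27.3 FPKM in males and 23.6, 29.5 and 24.7 FPKM in females, whose ranges overlapped (0.33, SE 0.18, adjusted p = 0.132). Of 13 regulators of the meiotic arrest class, which switch on the spermatocyte programme, 10 were higher and 1 lower (7 and 1 without male 2). The testis TAF gene sa stood at 14.2, 17.8 and 11.8 FPKM in males and 0 in females, at least 3.29-fold higher. boule (bol), an RNA-binding protein needed for meiotic entry in males, stood at 48.8, 49.7 and 51.7 FPKM in males and 2.99, 4.08 and 2.39 FPKM in females (3.99, SE 0.24, adjusted p = 1.18e-05). The lower one was twine (twe), a Cdc25 phosphatase of meiosis in both sexes, at 10.6, 17.5 and 11.5 FPKM in males and 104, 114 and 93.4 FPKM in females (-2.98, SE 0.24, adjusted p = 2.88e-05).

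All 42 tested seminal fluid genes of the Acp and Sfp names were higher in males, 34 of them listed at 0 in all females. Their median was 13.89 as fitted and 4.67 with those genes at their bound. Acp26Aa, ovulin, which raises ovulation in mated females, stood at 943, 752 and 846 FPKM in males and 0 in females, at least 192-fold higher. Acp53C14b stood at 1982, 2271 and 1835 FPKM in males and 0 in females, at least 283-fold higher. Sex peptide (SP), which changes egg laying and receptivity after mating, stood at 114, 1113 and 64.8 FPKM in males and 0 in females, so the males themselves spread widely, with male 2 far above the others. The same held for Mst57Da, an accessory gland peptide, at 3995, 12002 and 2558 FPKM in males and 0.492, 0 and 0 FPKM in females (15.23, SE 1.21, adjusted p = 2.71e-05), and for CG43147 at 1384, 7454 and 759 FPKM in males and 0 in females. What sets male 2 apart at these short transcripts was not tested.

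Products of the ejaculatory duct and bulb were higher in 5 of 5 cases. Est-6, the esterase of the seminal fluid, stood at 279, 343 and 389.9 FPKM in males and 3.87, 1.30 and 3.10 FPKM in females (6.94, SE 0.47, adjusted p = 1.63e-05). EbpIII had counts in both sexes, 662, 696 and 914 FPKM in males and 116, 44.2 and 81.7 FPKM in females (3.23, SE 0.36, adjusted p = 0.000122), whereas Ebp and EbpII were listed at 0 in all females. Gld, glucose dehydrogenase, stood at 33.9, 37.9 and 54.7 FPKM in males and 0.379, 0.445 and 0.601 FPKM in females (6.47, SE 0.33, adjusted p = 7.77e-06). Several odorant-binding proteins belonged to the same pattern: Obp51a stood at 773, 1573 and 915 FPKM in males and Obp56f at 322, 338 and 282 FPKM, both listed at 0 in all females and at least 102-fold and 39.1-fold higher. Obp22a and Obp56i were also at 0 in females, with 96.6, 156 and 108 and 19.7, 26.1 and 25.2 FPKM in the males.

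**Figure D3:**
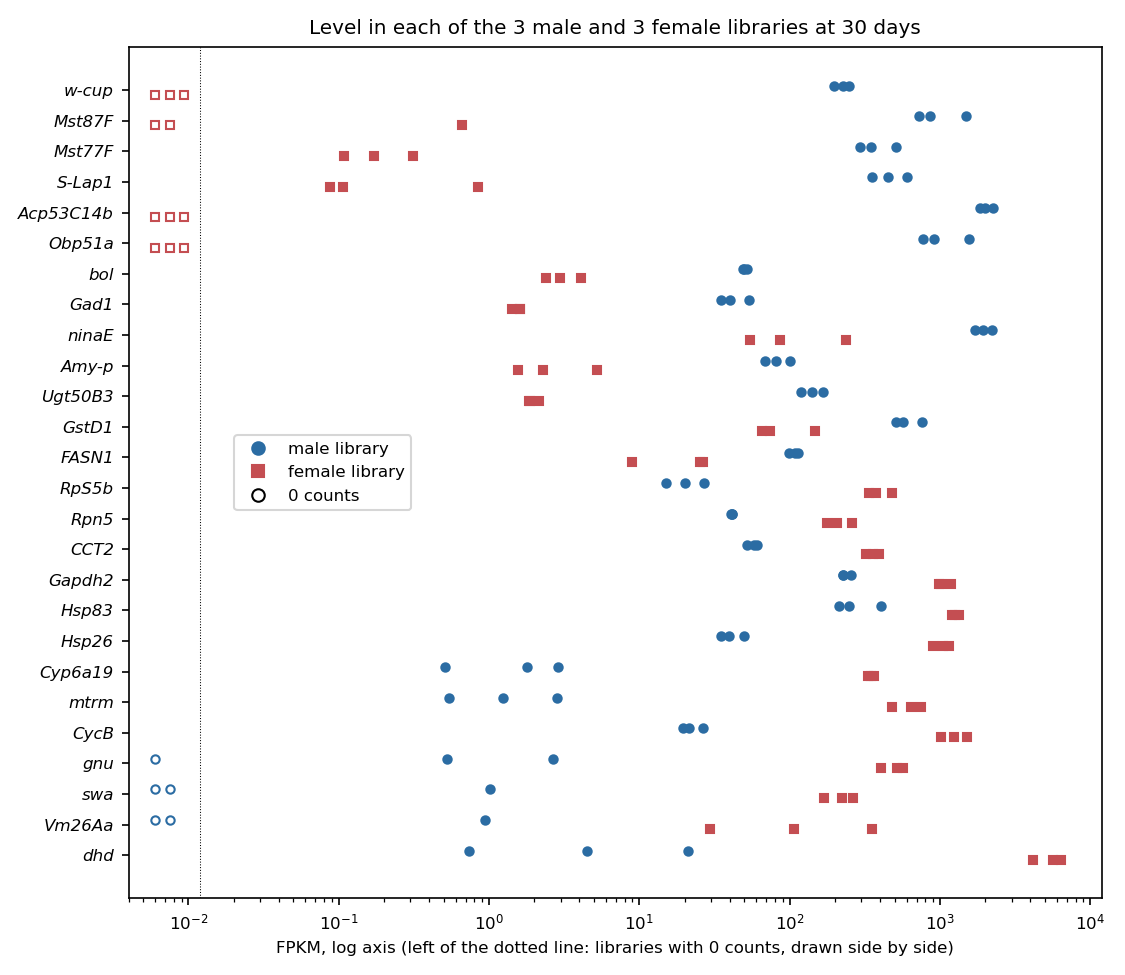
FPKM on a log axis of 26 named genes in each of the 3 male (circles) and 3 female (squares) libraries at 30 days, with libraries at 0 counts drawn as open symbols left of the dotted line. The sexes do not overlap for any gene shown, and the span runs from w-cup, at 0 in all females, to dhd, at 4149.8 FPKM or more in all females.

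Genes of the vitelline membrane, the inner eggshell, were lower in males throughout. All 10 tested vitelline membrane and early eggshell genes were lower in males. The structural gene Vm26Aa stood at 351, 108 and 29.5 FPKM in the females and 0, 0.944 and 0 FPKM in the males (-9.45, SE 1.53, adjusted p = 0.000763), and Vm26Ab at 132, 32.6 and 16.8 FPKM in females and 0, 0.395 and 0 FPKM in males (-9.26, SE 1.44, adjusted p = 0.000613). Female 1 was the highest and female 3 the lowest of the females at both genes. closca (clos), an eggshell protein, was even among females, at 25.9, 35.6 and 30.03 FPKM with 1.17, 1.44 and 1.19 FPKM in males (-4.60, SE 0.22, adjusted p = 7.02e-06). Of 8 tested chorion genes, which follicle cells express last and amplify, 3 were lower in males, a count that was 1 without male 2, male 3 or female 2, 5 without female 3, 1 with RLE or upper quartile factors and 7 with the factors of eye, nerve and muscle genes. Cp15 ranged over 283, 56.01 and 0.316 FPKM among females, with 10.5, 12.97 and 9.79 FPKM in males (-3.36, SE 1.53, adjusted p = 0.0748), so the sexes overlapped, though it was called without female 3.

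RNAs stored in the egg followed. Of 22 localized maternal RNAs and their regulators 15 were lower and 1 was higher in males (2 higher without female 1). swallow (swa), which anchors bicoid RNA, stood at 169, 264 and 223 FPKM in females and 0, 1.02 and 0 FPKM in males (-9.67, SE 1.35, adjusted p = 0.000361). nanos, the posterior determinant, stood at 99.9, 166 and 125 FPKM in females and 0.276, 0.577 and 0 FPKM in males (-8.99, SE 0.92, adjusted p = 7.43e-05), and pgc, which silences transcription in pole cells, at 367, 289 and 197 FPKM and 0, 0.995 and 0.901 FPKM (-8.89, SE 0.94, adjusted p = 9.03e-05). None of these overlapped between the sexes. The highest mean FPKM of the females was that of dhd, the germline thioredoxin, at 6427, 5676 and 4149.8 FPKM against 0.737, 21.1 and 4.49 FPKM in males (-9.30, SE 1.25, adjusted p = 0.000295). me31B, a helicase of stored RNA particles, stood at 1929, 1834 and 1558 FPKM in females and 42.7, 44.6 and 35.4 FPKM in males (-5.44, SE 0.22, adjusted p = 6.13e-06). The exception bgcn, which acts with bam in the early male and female germline, stood at 2.84, 4.48 and 2.64 FPKM in males and 0.467, 0.151 and 0.0112 FPKM in females (3.98, SE 1.07, adjusted p = 0.00945). gurken (grk), the dorsal signal of the oocyte, overlapped between the sexes at 22.6, 19.8 and 24.2 FPKM in males and 20.98, 11.97 and 12.6 FPKM in females (0.55, SE 0.29, adjusted p = 0.111).

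Genes of the piRNA pathway, which silences transposons in the germline, were lower in males in 24 of 25 cases, with a median of -4.84. piwi stood at 59.5, 76.7 and 74.5 FPKM in females and 1.07, 1.13 and 0.319 FPKM in males (-6.403, SE 0.50, adjusted p = 2.52e-05), and rhino (rhi), the chromatin mark reader of dual-strand clusters, at 37.5, 39.6 and 30.1 FPKM and 0, 0.544 and 0.464 FPKM (-6.80, SE 0.96, adjusted p = 0.000384). squ, by contrast, kept 15.6, 13.6 and 12.6 FPKM in the males against 98.5, 94.2 and 77.2 FPKM in the females (-2.69, SE 0.20, adjusted p = 2.17e-05). The gene not called was fs(1)Yb, a somatic piRNA factor, which had 4 to 44 counts a library in either sex.

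Meiotic recombination and pairing genes split by direction, 17 lower and 3 higher in males of 23. Matrimony (mtrm), the Polo inhibitor of the oocyte, stood at 751, 641 and 478 FPKM in females and 0.545, 2.85 and 1.23 FPKM in males (-8.73, SE 0.64, adjusted p = 2.14e-05). c(2)M, of the synaptonemal complex, stood at 21.5, 18.6 and 15.04 FPKM in females and 0.694, 0.644 and 0.149 FPKM in males (-5.22, SE 0.60, adjusted p = 0.000135). Of the higher ones cona, a gene of the synaptonemal complex, which males do not build, stood at 9.16, 13.2 and 11.7 FPKM in males and 0, 0.224 and 0 FPKM in females (7.08, SE 1.33, adjusted p = 0.00165). The cohesion gene ord, needed in both sexes, stood at 3.37, 3.84 and 2.99 FPKM in males and 0, 0.111 and 0.0771 FPKM in females (5.72, SE 1.10, adjusted p = 0.00184). The third was mei-W68, the Spo11 homologue that makes meiotic double-strand breaks, at 2.14, 0.895 and 1.62 FPKM in males and 0.119, 0.129 and 0.242 FPKM in females (3.24, SE 0.76, adjusted p = 0.00491). cona, ord and mei-W68 all rest on female values of 0 to 25 counts a library. With a replicate block in the edgeR fit mei-W68 was not called (adjusted p = 0.0554). The antisense and overlapping neighbours of these genes cannot be told apart from them, since the strand setting of the counting is not given in the sources used here.

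All 42 tested genes of DNA replication were lower in males, with a median of -4.17, and those of the mitotic cycle in 28 of 31, with a median of -3.88. RnrS, the small subunit of ribonucleotide reductase, stood at 409, 448 and 367 FPKM in females and 7.14, 9.52 and 9.44 FPKM in males (-5.55, SE 0.22, adjusted p = 6.13e-06). Orc1, of the origin recognition complex, stood at 56.5, 107 and 88.4 FPKM in females and 0.292, 0.621 and 0.142 FPKM in males (-7.98, SE 0.58, adjusted p = 2.06e-05). Cyclin B (CycB) stood at 1025, 1518 and 1245 FPKM in females and 21.6, 26.6 and 19.6 FPKM in males (-5.80, SE 0.26, adjusted p = 6.13e-06), and string (stg), the mitotic Cdc25 phosphatase, at 149, 226 and 205 FPKM and 0.583, 1.39 and 0.448 FPKM (-7.95, SE 0.51, adjusted p = 1.48e-05). The 3 genes of the Pan gu kinase, which drives the divisions after egg activation, all fell this way: gnu stood at 569, 522 and 405 FPKM in females and 0.528, 2.67 and 0 FPKM in males (-9.07, SE 1.11, adjusted p = 0.000179), png at 95.5, 116 and 87.9 and 0, 0.586 and 0 FPKM (-9.43, SE 1.07, adjusted p = 0.000124), and plu at 114, 85.1 and 58.01 and 1.05, 1.55 and 0 FPKM (-6.70, SE 1.00, adjusted p = 0.000512). Of 23 nuclear pore genes 21 were lower in males. Nup154 stood at 64.8, 62.4 and 58.8 FPKM in females and 5.003, 3.57 and 3.95 FPKM in males (-3.89, SE 0.20, adjusted p = 7.7e-06). Sec13, which also serves the secretory coat, was one of the 2 not called, at 106, 106 and 95.97 FPKM in females and 82.8, 83.3 and 93.8 FPKM in males (-0.25, SE 0.15, adjusted p = 0.159).

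Many general cell genes have a second copy that is used in a germline. Of 61 genes listed as such copies 56 were higher in males and 3 lower, 26 were listed at 0 in all females, and of their 53 general counterparts 8 were higher and 23 lower in males. One listed copy, RpL24-like, had mean FPKM of 258 in males and 284 in females (-0.14, adjusted p = 0.585). These values do not bear out its place in the list. Another copy, eIF4G2, was not called either, at mean FPKM of 25.9 in males and 20.9 in females (0.31, adjusted p = 0.305). In the proteasome the copies and the general genes went opposite ways. All 14 testis copies were higher in males and all 10 of their general counterparts lower. Prosalpha6T stood at 35.6, 62.8 and 37.2 FPKM in males and 0 in females (at least 10.9-fold higher), while Prosalpha6 stood at 66.04, 70.8 and 68.7 FPKM in males and 274, 233 and 204 FPKM in females (-1.79, SE 0.17, adjusted p = 5.61e-05). Rpn12R made up 42.3 to 61.8% of the summed FPKM of Rpn12R and Rpn12 in males and 0% in females. Rpn5, a lid subunit with no copy in the list, stood at 40.9, 41.1 and 41.4 FPKM in males and 177, 261 and 206 FPKM in females (-2.39, SE 0.19, adjusted p = 2.83e-05). Without the copies, the proteasome list held 1 gene higher and 26 lower of 34.

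The respiratory chain gave another picture. All 16 copies were higher in males, but of their 15 general counterparts 5 were higher and 0 lower. Those 5 are a smaller share than the 45.9% of all genes. The median of the counterparts, 0.69, lay below the 1.32 of all genes. Cyt-c-d, the cytochrome c of the testis, stood at 82.1, 147 and 79.3 FPKM in males and 0 in females (at least 20.3-fold higher), while Cyt-c-p stood at 368, 385 and 347 FPKM in males and 326, 273 and 255 FPKM in females (0.37, SE 0.16, adjusted p = 0.0674). In mitochondrial import, tomboy40 took 72.1 to 80.6% of its pair in males and at most 0.140% in females, and its general counterpart Tom40 stood at 25.04, 20.5 and 20.7 FPKM in males and 99.00, 151 and 132 FPKM in females (-2.53, SE 0.21, adjusted p = 3.29e-05). The 5 testis TFIID copies were all higher in males and 4 of their 5 general counterparts lower, Taf5 for one at 7.33, 4.21 and 3.62 FPKM in males and 36.1, 46.4 and 37.95 FPKM in females (-2.99, SE 0.32, adjusted p = 9.26e-05). The spermatid beta-tubulin betaTub85D stood at 244, 346 and 256 FPKM in males and 0.385, 0 and 0 FPKM in females (11.16, SE 1.16, adjusted p = 8.2e-05), 41.3 to 52.4% of its pair with betaTub56D in males. The cap-binding eIF4E5 stood at 79.6, 139 and 74.1 FPKM in males and 0 in females (at least 23.5-fold higher), against 105, 99.8 and 101 and 349, 383 and 337 FPKM of eIF4E1 (-1.81, SE 0.15, adjusted p = 3.41e-05).

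Copies of the female germline ran the other way. The maternal alpha-tubulin alphaTub67C stood at 337, 474 and 379.8 FPKM in females and 0.669, 1.24 and 0.918 FPKM in males (-8.74, SE 0.33, adjusted p = 6.13e-06), while alphaTub84B, the main alpha-tubulin, stood at 875, 896 and 887 FPKM in females and 866, 988 and 859 FPKM in males (0.03, SE 0.16, adjusted p = 0.867). RpS5b stood at 479, 338 and 377 FPKM in females and 20.2, 26.99 and 15.02 FPKM in males (-4.27, SE 0.28, adjusted p = 1.57e-05), and its partner RpS5a at 359.9, 182 and 274 FPKM and 906, 1094 and 1010.3 FPKM (1.88, SE 0.26, adjusted p = 0.000363), so that the larger copy changed from one sex to the other. Members of a pair share sequence, and how reads that match both were counted is not given in the sources used here, which leaves the smaller share of each pair uncertain.

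**Figure D4:**
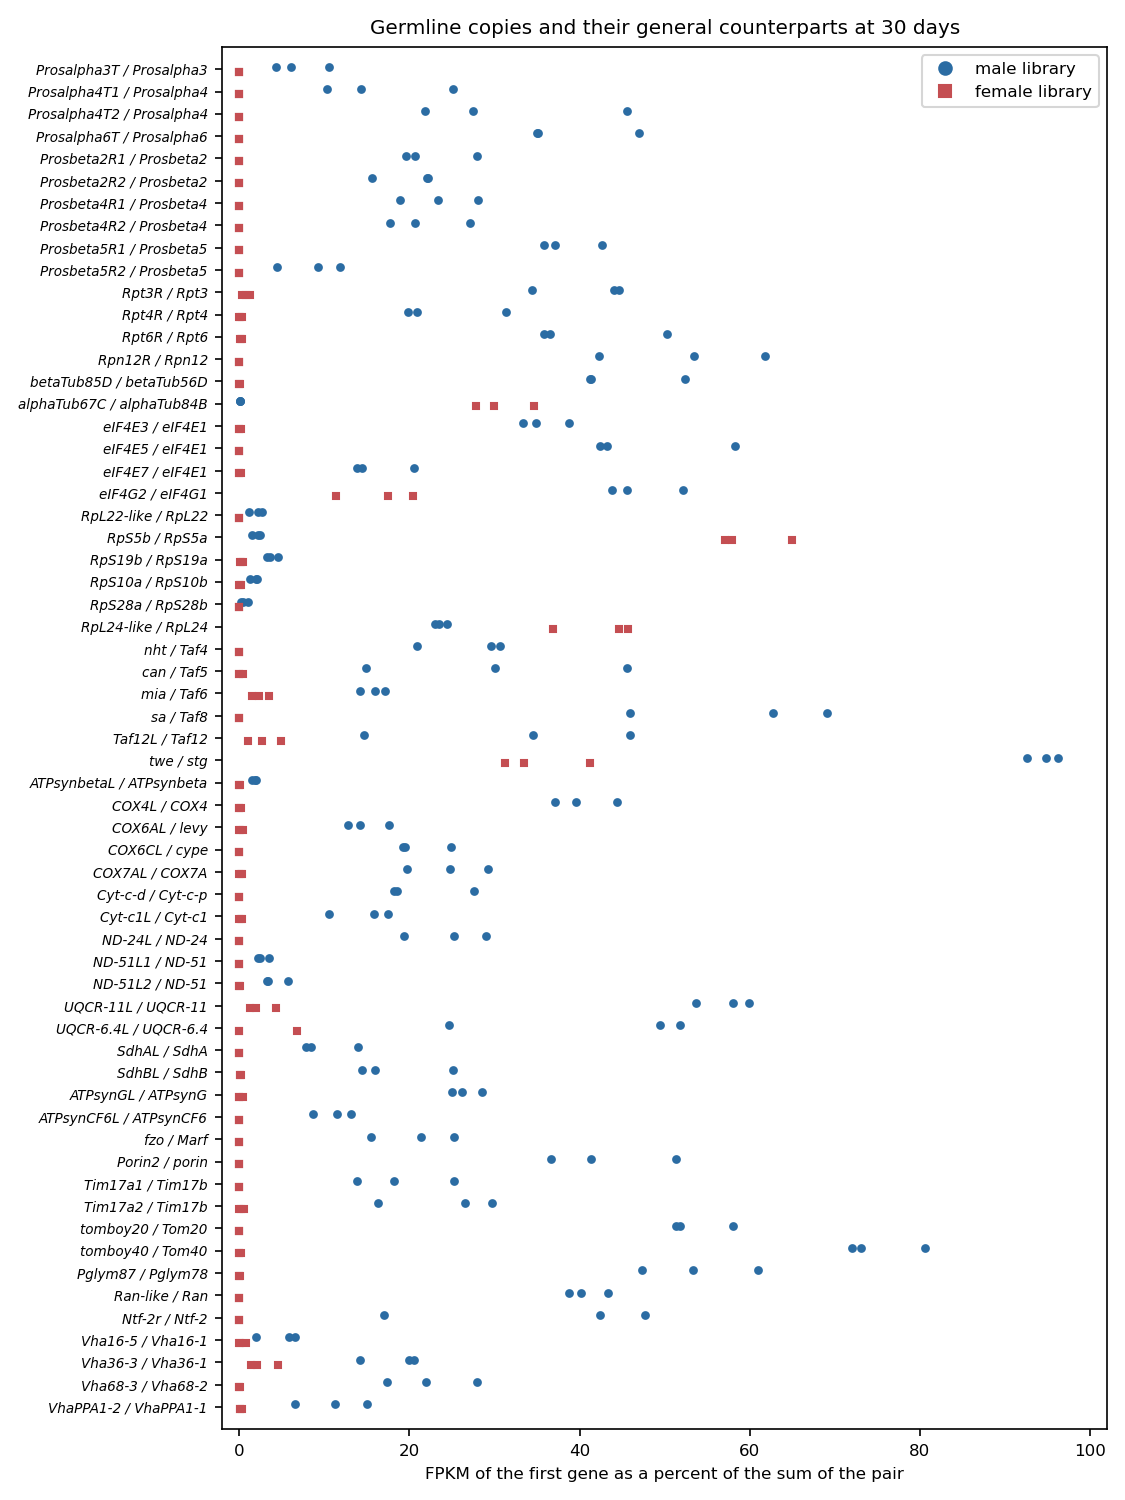
FPKM of the germline copy as a percent of the sum of the pair, for 61 pairs named as germline copy and general counterpart, in each male (circles) and female (squares) library. Male values spread over the axis up to 96.2% for twe and 80.6% for tomboy40, while female values lie near 0 for all pairs but alphaTub67C, eIF4G2, RpS5b, RpL24-like and twe and a few under 10%.

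Among the general machinery of the cell the complexes parted. Of 92 cytoplasmic ribosomal protein genes 44 (47.8%) were higher in males, near the 45.9% of all genes, and 2 lower, with a median of 1.000 on the TMM scale, below that of all genes, and -2.08 on the scale of eye, nerve and muscle genes. The count of higher genes turned on the scaling, at 58 with RLE factors, 79 with upper quartile factors, 25 with total counts and 5, beside 83 lower, on the scale of eye, nerve and muscle genes. Leaving out male 2 gave 29 higher and leaving out female 2 gave 26. They took 9.30, 11.5 and 10.1% of all counts in males and 7.93, 4.63 and 6.69% in females. The mitochondrial ribosome lay further below the median of all genes, with 1 gene higher and 35 lower of 72, with a median of -0.995. mRpL12 stood at 36.2, 48.4 and 46.1 FPKM in males and 168, 192 and 142 FPKM in females (-1.94, SE 0.21, adjusted p = 9.38e-05). Nuclear genes of oxidative phosphorylation were higher in 44 of 84 cases (52.4%, against 45.9% of all genes) and lower in 0. Their median of 1.06 lay below that of all genes and became -2.13 on the scale of eye, nerve and muscle genes. Without the testis copies 29 of 69 were higher, at a median of 0.83. Of 13 mitochondrially encoded RNAs 10 were higher in males, with a median of 1.87 that became -1.24 on the other scale. COX3 had 260840, 123773 and 271764 counts in males and 94475, 72398 and 50930 counts in females (2.18, SE 0.27, adjusted p = 0.000211). Their share of all counts was 3.35, 2.63 and 3.48% in males and 1.54, 0.828 and 0.906% in females, in libraries made by poly(A) capture.

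All 8 subunits of the CCT chaperonin, which folds actin and tubulin, were lower in males. CCT2 stood at 58.1, 52.1 and 61.03 FPKM in males and 323, 393 and 356 FPKM in females (-2.65, SE 0.17, adjusted p = 1.44e-05). Aminoacyl-tRNA synthetases were lower in 25 of 33 cases and higher in 2 (1 without male 2 or without female 1). ArgRS stood at 8.94, 6.33 and 7.68 FPKM in males and 60.9, 56.5 and 56.1 FPKM in females (-2.92, SE 0.20, adjusted p = 1.87e-05), and an exception was the mitochondrial CysRS-m, at 44.1, 42.96 and 34.1 FPKM in males and 8.70, 10.7 and 8.82 FPKM in females (2.10, SE 0.21, adjusted p = 7.33e-05). Translation initiation factors were mixed, 9 higher (20.5%) and 7 lower (15.9%) of 44, both below the shares of all genes. Their median of -0.06 lay at 0.12 and 0.27 with RLE and upper quartile factors. The 7 lower were 4 with RLE, 3 with upper quartile factors and 12 with total counts. Outside the germline copies the counts were 6 and 7 of 40. eIF4G1, the scaffold of the cap complex, stood at 30.7, 24.5 and 32.4 FPKM in males and 99.2, 106 and 106 FPKM in females (-1.83, SE 0.17, adjusted p = 5.4e-05). The tricarboxylic acid cycle had 5 of 18 genes higher and none lower, at a median of 0.65, below that of all genes and -2.53 on the scale of eye, nerve and muscle genes. Without female 2, 2 of them were higher.

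Most neural and eye genes were higher in males on the TMM scale. Of 37 synaptic and neuronal genes 33 were higher and 1 lower, at a median of 3.89, or 0.70 on the scale of eye, nerve and muscle genes, where 9 were higher and 4 lower. That scale was set by 7 members of this list, 9 of the phototransduction list and 12 of the sarcomere list, so the medians of these lists on it are not independent of it. Without those members the neural median on it was 0.69, the phototransduction median -0.03 and the sarcomere median -1.03. Gad1, which makes the transmitter GABA, stood at 53.6, 34.97 and 40.4 FPKM in males and 1.61, 1.42 and 1.61 FPKM in females (4.80, SE 0.24, adjusted p = 7.59e-06). nAChRalpha1, an acetylcholine receptor subunit, stood at 4.01, 2.35 and 2.83 FPKM in males and 0.102, 0.0301 and 0.0653 FPKM in females (5.55, SE 0.56, adjusted p = 7.13e-05). The exception Syx1A, a membrane fusion protein that many cells use, stood at 3.90, 3.70 and 4.96 FPKM in males and 9.01, 12.4 and 13.1 FPKM in females (-1.46, SE 0.26, adjusted p = 0.00122). Phototransduction genes were higher in 21 of 29 cases and lower in none (1 lower without male 1 or without female 1), at 3.81. ninaE, the rhodopsin of the outer photoreceptors, stood at 1702, 1933 and 2233 FPKM in males and 86.1, 54.7 and 238 FPKM in females (3.95, SE 0.55, adjusted p = 0.000355). Female 3 held several times the level of female 2, as it did for Rh4, a rhodopsin of inner photoreceptors, at 9.54, 3.84 and 15.01 FPKM in females and 164, 241 and 240.4 FPKM in males (4.51, SE 0.50, adjusted p = 0.000112). norpA, the phospholipase C of the cascade, changed less, at 33.5, 30.3 and 32.3 FPKM in males and 16.9, 21.3 and 19.5 FPKM in females (0.74, SE 0.16, adjusted p = 0.00322). The summed photoreceptor markers were 4684 to 5891 CPM in males and 308 to 710 CPM in females, and the neuron markers 569 to 920 CPM and 26.3 to 51.5 CPM.

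Odorant-binding proteins were higher in 28 of 34 cases, 7 of them listed at 0 in all females, with a median of 3.40, or 2.95 with those at their bound. Obp83a, of the antenna, stood at 29.6, 11.8 and 24.8 FPKM in males and 6.66, 4.28 and 5.65 FPKM in females (1.997, SE 0.45, adjusted p = 0.00384), with male 2 the lowest male. Of 128 chemoreceptor genes in the table only 47 were counted often enough to test, 18 of them higher and 0 lower (16 and 3 without male 2, with 1 lower without male 3 or female 2). The share higher, 38.3%, was below the 45.9% of all tested genes. Their median of 2.46 became -0.85 on the scale of eye, nerve and muscle genes. With a mean of 100 counts or more, 5 were higher. DESeq2 gave 30 higher and 1 lower, and the fit of all 12 libraries gave 29 higher. Those 2 fits tested 15249 and 14146 genes, more than the 13013 here. Or59b, an odorant receptor of the antenna, stood at 21.6, 16.4 and 13.6 FPKM in males and 0.458, 0 and 0 FPKM in females (6.83, SE 1.49, adjusted p = 0.00341).

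Sarcomere genes had a lower median than neural genes. Of 30 sarcomere genes 22 were higher and 0 lower, at 2.03 and -1.05 on the 2 scales. Act87E, an actin of body muscle, stood at 157, 164 and 153 FPKM in males and 42.7, 15.4 and 23.9 FPKM in females (2.53, SE 0.36, adjusted p = 0.00037), and Act57B, the most abundant muscle actin here, at 429.8, 428 and 562 FPKM and 293, 99.2 and 273 FPKM (1.09, SE 0.38, adjusted p = 0.0299), with female 2 the lowest female. Act57B was no longer called without any one of males 1, 2 and 3 or without female 2. The flight muscle actin Act88F overlapped between the sexes at 8.57, 10.3 and 12.2 FPKM in males and 2.91, 5.58 and 9.39 FPKM in females (0.79, SE 0.47, adjusted p = 0.155), and was called without female 3. Flight muscle markers fln and TpnC4 had at most 30 counts in any male library.

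Both lists of digestive enzymes of the gut held a larger share of higher genes than the 45.9% of all genes. Serine proteases of the Jonah and trypsin families were higher in 18 of 31 cases (58.1%) and lower in 0. Without male 2, 14 were higher, and on the scale of eye, nerve and muscle genes 0 were higher and 16 lower. Their median of 1.60, near the 1.32 of all genes, became -1.50 on that scale. All 7 tested amylases and gut lipases were higher, at 4.61 and 1.72. Amy-p, the proximal amylase, stood at 100.4, 68.9 and 80.9 FPKM in males and 2.30, 1.57 and 5.25 FPKM in females (4.78, SE 0.49, adjusted p = 7.42e-05). Amy-d, its near-identical copy, stood at 20.7, 13.7 and 19.8 FPKM in males and 0.299, 0.0761 and 1.08 FPKM in females (5.22, SE 0.91, adjusted p = 0.00111), and reads of the 2 may not separate. alphaTry, an abundant trypsin, stood at 990.2, 1046 and 777 FPKM in males and 240.2, 82.9 and 291 FPKM in females (2.20, SE 0.43, adjusted p = 0.00204).

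Of the enzymes that modify foreign compounds, the cytochrome P450 and UDP-glycosyltransferase lists stood above the 45.9% of all genes called higher and the glutathione S-transferases close to it. Cytochrome P450 genes were higher in 58 of 79 cases and lower in 5, at a median of 2.91 that became -0.10 on the scale of eye, nerve and muscle genes. Cyp28c1 stood at 47.8, 55.6 and 54.8 FPKM in males and 0, 0.0629 and 0.293 FPKM in females (8.81, SE 0.89, adjusted p = 7.23e-05). Cyp6a19 showed the reverse on a larger scale, 351, 365 and 332.4 FPKM in females and 0.509, 2.86 and 1.80 FPKM in males (-7.70, SE 0.63, adjusted p = 2.99e-05). Cyp4g1, which makes the hydrocarbons of the cuticle in oenocytes and was the most abundant P450, overlapped at 1237, 969.9 and 1911 FPKM in males and 889.9, 197 and 1009.8 FPKM in females (0.97, SE 0.55, adjusted p = 0.139). Glutathione S-transferases were higher in 16 of 33 cases (48.5%) and lower in 5, at 1.40 and, on the other scale, -1.77. GstD1 stood at 573, 513 and 762 FPKM in males and 73.5, 65.5 and 149 FPKM in females (2.68, SE 0.35, adjusted p = 0.000259), GstT2 at 14.2, 16.99 and 25.2 FPKM and 78.8, 59.5 and 53.1 FPKM (-1.76, SE 0.30, adjusted p = 0.000994). UDP-glycosyltransferases were higher in 18 of 28 cases and lower in 2, at 2.61 and, on the other scale, -0.39. Ugt50B3 stood at 166, 119.6 and 140.3 FPKM in males and 2.17, 1.85 and 1.88 FPKM in females (6.17, SE 0.22, adjusted p = 6.13e-06). Structural cuticle proteins were higher in 29 of 44 tested genes (22 without male 2, and 13 with a mean of 100 counts or more) and lower in none, at 3.90 and 0.86. Cpr51A stood at 10.4, 15.3 and 17.3 FPKM in males and 0.773, 0 and 0.464 FPKM in females (5.12, SE 1.23, adjusted p = 0.00540).

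The proton pump of the vacuolar ATPase had 16 of 32 genes (50%) higher, near the 45.9% of all genes, and 1 lower. Its median was 1.67 (0.58 with genes at 0 at their bound, -1.39 on the scale of eye, nerve and muscle genes). Outside the germline copies, and among the 22 others with counts in females, 6 were higher and the median was 0.17. Vha100-3 stood at 18.7, 20.8 and 18.8 FPKM in males and 0 in females (at least 13.5-fold higher), while Vha13 overlapped at 311, 411 and 362 FPKM in males and 609, 419 and 358 FPKM in females (-0.36, SE 0.23, adjusted p = 0.191).

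Genes of fat metabolism went both ways. Of 23 lipid genes 8 were higher and 3 lower, at 0.44 and, on the other scale, -2.72. FASN1, fatty acid synthase, stood at 113, 98.4 and 108 FPKM in males and 25.4, 8.95 and 26.4 FPKM in females (2.40, SE 0.39, adjusted p = 0.000809), and ACC, which makes its malonyl-CoA, at 44.2, 49.2 and 46.1 FPKM and 10.6, 8.77 and 12.98 FPKM (2.11, SE 0.19, adjusted p = 4.61e-05). bgm, a very long chain acyl-CoA synthetase, stood at 13.4, 11.9 and 13.6 FPKM in males and 97.1, 131 and 118 FPKM in females (-3.15, SE 0.19, adjusted p = 1.06e-05), and Lsd-2, a perilipin of lipid droplets that the ovary also uses, at 59.9, 55.3 and 73.5 FPKM and 137, 228 and 205 FPKM (-1.59, SE 0.24, adjusted p = 0.000477). Of 8 hydrocarbon and pheromone enzymes 3 (37.5%) were higher and 2 (25%) lower, against 45.9% and 25.4% of all genes. Their median was 0.93, and -2.16 on the other scale. Fad2, the desaturase of female dienes, stood at 64.97, 11.2 and 84.7 FPKM in females and 0, 0.230 and 0 FPKM in males (-9.91, SE 1.33, adjusted p = 0.000286), and eloF, the female elongase, at 38.04, 6.81 and 32.6 FPKM and 0.725, 0.215 and 0.540 FPKM (-5.66, SE 0.83, adjusted p = 0.000444), both with female 2 the lowest female. bond, an elongase of fatty acids in the male tract, stood at 53.1, 63.2 and 66.2 FPKM in males and 2.39, 0.844 and 1.92 FPKM in females (5.15, SE 0.42, adjusted p = 2.94e-05).

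Glycolysis had 4 of 13 genes (30.8%) higher and 2 (15.4%) lower, both below the shares of all genes. Its median of -0.31 was 0.03 with upper quartile factors. Gapdh2 stood at 227, 227 and 258 FPKM in males and 982, 1192 and 1015 FPKM in females (-2.16, SE 0.17, adjusted p = 2.71e-05). Ald1, aldolase, moved the other way at 331, 320.4 and 349 FPKM in males and 96.6, 101 and 118 FPKM in females (1.66, SE 0.16, adjusted p = 6.45e-05), as did Ldh, lactate dehydrogenase, at 20.3, 21.9 and 31.5 FPKM and 1.02, 0.953 and 2.61 FPKM (4.01, SE 0.49, adjusted p = 0.000184). The testis phosphoglycerate mutase Pglym87 stood at 119, 166 and 114 FPKM in males and 0, 0.257 and 0 FPKM in females (10.36, SE 0.90, adjusted p = 3.7e-05).

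Heat shock genes went both ways. Among 22 of them 9 (40.9%) were higher and 4 (18.2%) lower, against 45.9% and 25.4% of all genes. Their median of 2.50 became -0.46 on the scale of eye, nerve and muscle genes. The small chaperone Hsp26 stood at 34.99, 39.5 and 49.6 FPKM in males and 1150.1, 1050.4 and 899 FPKM in females (-4.64, SE 0.22, adjusted p = 7.09e-06), and Hsp27 at 16.9, 28.7 and 19.2 FPKM and 633, 747 and 571 FPKM (-4.91, SE 0.28, adjusted p = 9.23e-06). Hsp83, the fly Hsp90, stood at 212, 249 and 405 FPKM in males and 1196, 1347 and 1270.1 FPKM in females (-2.14, SE 0.27, adjusted p = 0.000209). Nurse cells of the ovary are known to make these 3 RNAs without heat. Hsp60B, a mitochondrial chaperonin of the testis, stood at 70.1, 115 and 60.99 FPKM in males and 0, 0.0158 and 0 FPKM in females (13.38, SE 0.62, adjusted p = 6.36e-06). The constitutive Hsc70-4 overlapped at 1067, 1048 and 1373 FPKM in males and 865, 906 and 1123 FPKM in females (0.27, SE 0.20, adjusted p = 0.237). Of 20 autophagy genes 4 (20%) were higher and 4 (20%) lower, both below the shares of all genes. Atg8b, of the male germline, stood at 118, 133 and 92.8 FPKM in males and 0.455, 0 and 0 FPKM in females (9.60, SE 1.04, adjusted p = 0.000101), and Atg8a, the general form, at 321, 330.0 and 390.4 FPKM and 155, 108 and 122 FPKM (1.44, SE 0.19, adjusted p = 0.000301).

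Clock genes were higher in 8 of 12 cases and lower in 2, at a median of 2.64 that became -0.41 on the scale of eye, nerve and muscle genes. timeless (tim), a repressor of the loop, stood at 19.8, 23.5 and 17.9 FPKM in males and 3.22, 1.80 and 2.76 FPKM in females (2.98, SE 0.27, adjusted p = 4.24e-05). Pdf, the neuropeptide of the clock neurons, stood at 58.1, 64.7 and 55.2 FPKM in males and 6.46, 2.87 and 2.77 FPKM in females (3.88, SE 0.43, adjusted p = 0.000111). cyc, the partner of Clk, stood at 22.9, 22.9 and 24.7 FPKM in males and 93.99, 111 and 94.3 FPKM in females (-2.09, SE 0.16, adjusted p = 2.63e-05), and the kinase dco at 16.5, 17.6 and 14.8 FPKM and 52.5, 94.95 and 84.5 FPKM (-2.25, SE 0.25, adjusted p = 0.000106). The time of day of collection is not given in the sources used here.

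Long noncoding RNAs were higher in males in 696 of 947 cases and lower in 33 (21 lower without male 1). Among those with a mean of 100 counts or more, 180 were higher and 19 lower. Their median was 8.52 as fitted, but 525 were listed at 0 in all females and the median was 0.34 with those at their bound. CR43805 stood at 146, 171 and 144 FPKM in males and 0 in females, at least 61.9-fold higher. By chromosome, in the RefSeq annotation of Release 6 plus ISO1 MT, 37.8% of 2059 tested X-linked genes were higher in males and 30.6% lower, while on the 4 large autosome arms 45.6 to 51.5% were higher and 23.1 to 26.1% lower. The X median was 0.39 against 1.13 to 2.00 on those arms. The share of tested genes listed at 0 in all females was 8.98% on the X and 12.5 to 20.02% on the arms. With those genes at their bound the X median was 0.08 and the arms' medians 0.46 to 0.75.

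**Figure D5:**
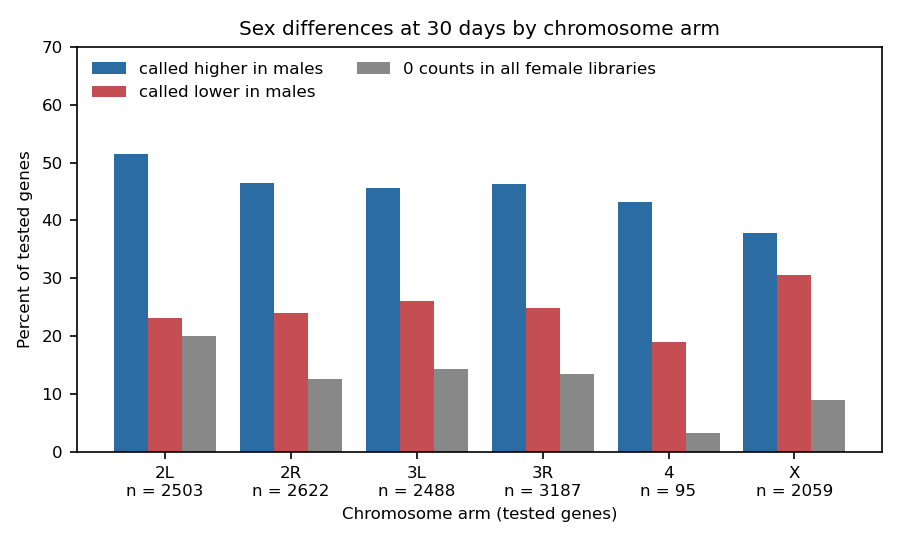
Percent of tested genes called higher in males, called lower in males, and listed at 0 counts in all female libraries, by chromosome arm at 30 days. The X has the lowest share higher (37.8%) and the highest share lower (30.6%) of the arms shown, and 2L the highest share at 0 in females (20.02%).

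By mean FPKM, which covers only genes with a length and so no mitochondrially encoded RNA, the first gene in males was CG18628, at 4861, 11958 and 4289 FPKM against 205, 99.7 and 79.6 FPKM in females (5.78, SE 0.59, adjusted p = 7.77e-05), followed by Mst57Da, the ribosomal protein gene RpL41 and CG9029. lcs was also among the first 10 in males, at 1889, 4071 and 1699 FPKM against 199, 133 and 146 FPKM in females (3.999, SE 0.40, adjusted p = 6.72e-05). eEF1alpha1, the elongation factor, was in the first 10 of both sexes, at 3561, 3924 and 3948 FPKM in males and 2818, 1939 and 3348 FPKM in females (0.50, SE 0.23, adjusted p = 0.0823).

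The 10-day libraries allow a test of whether the sex difference had changed by 30 days. Of 14146 genes tested for that interaction over all 12 libraries, 2 (0.0141%) were called, GstS1 and CG15570, and 1837 had an unadjusted p below 0.05. The count was 0 without male 1 or male 3 of 30 days, 4 without male 2, and 62, 22 and 91 without female 1, 2 or 3. With 10-day males and females compared by the same test, 5805 genes were higher and 3310 lower in males of 13334 tested. Over the 12694 genes tested at both ages the median difference was 0.90 at 10 days and 1.20 at 30 days.

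Cytoplasmic ribosomal protein genes were the family whose median moved most among those of 20 or more genes. Their median was -0.15 at 10 days and 1.000 at 30 days, and 90 of 92 had a larger male-over-female difference at 30 days, by a median of 1.08 against 0.02 over all genes, though no single member was called. Their share of all counts was 7.28, 6.54 and 8.23% in 10-day males and 9.24, 10.5 and 8.37% in 10-day females, so the sexes changed places by 30 days. Within each sex the 3 libraries of 1 age did not overlap those of the other. Chorion genes took 0.236, 0.161 and 0.295% of counts in 10-day females and 0.0183, 0.0120 and 0.000296% in 30-day females. The neural list stood at 2.86 at 10 days and 3.89 at 30 days. Its male-over-female difference was larger at 30 days in 33 of 37 genes, by a median of 0.88 over the list, and no member was called. Same-numbered libraries of the 2 ages are separate flies.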

How the data were processed

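Whole-fly poly(A) RNA was sequenced by a commercial provider as paired ends, in 3 libraries of 10 flies for each sex and age. The authors deposited raw read counts per gene for each library, and these are the only values used. Another 16 columns of normalized values and group means, and the deposited fold changes and p-values, were not used. The authors ran DESeq2 on these counts, and the aligner, counter and genome build are not given in the sources used here.

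Counts were fitted with edgeR 4.0.16 (quasi-likelihood, TMM factors, filterByExpr with a minimum count of 10) in R 4.3.3, for the 6 libraries of 30 days and, for the age interaction, all 12. A gene was called at a Benjamini-Hochberg adjusted p below 0.05 and a log2 change above 1. SE is the standard error of the log2 fold change, and FPKM were computed here from the counts, exon-union lengths of Ensembl release 115 (15221 of 15261 genes) and TMM-scaled totals. Names and chromosomes came from RefSeq (15240 matched). Depth was 23097763 to 54692004 counts a library.

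Alternatives were DESeq2 1.42.0, limma 3.58.1 (voom), other factors, filters and call rules, a replicate block, and leaving out each library. On simulated counts for 12736 genes the fit recovered 100% of changes of 2 and of 3 (log2), with 1 false call of 201. In that simulation few genes changed, as many up as down, with 1 spread for all genes and no excess zeros. It therefore does not test the scaling or the zeros of these data. Tables and plots used Python 3.11.15, numpy 2.4.6, pandas 2.3.3 and matplotlib 3.10.9.

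Genes were named by rule: those that check the sex; the 10 largest called changes in each direction among genes with 100 counts in each library of the sex with more; in each list the most abundant member and up to 4 called members in each direction; all members of lists of at most 12 genes; and the pairs of copies. Not every gene the rule allows is printed. Acp26Aa, Act88F, CG15570, CG18628, CG43147, GstS1, Mst57Da, Obp83a, SP, dhd, eEF1alpha1, grk, lcs, m-cup, me31B, mei-W68 and norpA were chosen after their values were seen. The members and lists were chosen with earlier results of these data known. Immune, maltase and insulin genes were left out.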

Additional observations from a re-analysis of the deposited data

Results flagged for a closer look

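GstS1 and CG15570 stood out because their sex difference at 30 days differed from that at 10 days by a test of the difference itself (edgeR quasi-likelihood interaction over 12 libraries, Benjamini-Hochberg adjustment over 14146 genes). GstS1, a glutathione S-transferase of the sigma class, stood at 223, 237 and 199 FPKM in 10-day males and 122, 126 and 120.1 FPKM in 30-day males, against 54.2, 63.4 and 60.3 FPKM in 10-day females and 81.4, 102 and 87.8 FPKM in 30-day females. The libraries of the 2 ages did not overlap in either sex, and the difference shrank from 1.89 to 0.44, an interaction of -1.48 (adjusted p = 0.0160).

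CG15570, a gene with no function given in the sources used here, stood at 13.2, 6.27 and 12.2 FPKM in 10-day females and 0, 0.0204 and 0 FPKM in 30-day females, against 0.438, 0.492 and 0.944 FPKM in 10-day males and 0.424, 0.434 and 0.399 FPKM in 30-day males. The sex difference turned from -4.07 to 5.71, an interaction of 9.71 (adjusted p = 0.0120). The male-higher value at 30 days rests on 67, 37 and 61 counts in males and 0, 5 and 0 counts in females. Neither gene was called without 30-day male 1 (adjusted p = 0.0926 for GstS1 and 0.0555 for CG15570) or without 30-day male 3 (0.0927 and 0.0510), and both were called without each other library of 30 days. With a replicate block in the interaction test neither was called (adjusted p = 0.380 for both). No cause was tested for either gene.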

How the results depend on the processing

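Factors from 28 photoreceptor, neuron and muscle genes changed the comparison most, with 2863 genes called higher and 6683 lower in males. DESeq2, limma-voom, RLE, upper quartile and total-count factors, the 3 other filters (1 of them, a mean of 100 counts, chosen after the data were seen), the 2 other call rules and the fit of 12 libraries each left both counts within 1.5 times of 5973 and 3301. So did leaving out any 1 library, with 5546 to 6047 higher and 3222 to 3367 lower. With somatic factors the log2 fold changes of 23 named genes turned negative: alphaTub84B -3.15, Hsc70-4 -2.91, m-cup -2.89, Cyt-c-p -2.82, GstS1 -2.79, grk -2.61, eEF1alpha1 -2.60, norpA -2.50, Act88F -2.35, Cyp4g1 -2.02, Act57B -1.94, Atg8a -1.72, Ald1 -1.52, Obp83a -1.22, RpS5a -1.20, CysRS-m -1.13, ACC -1.02, COX3 -0.99, alphaTry -0.79, FASN1 -0.63, Act87E -0.53, GstD1 -0.42 and tim -0.11. Another 10 named genes kept their direction but were no longer called: CG15570, Cpr51A, EbpIII, Ldh, Pdf, bgcn, bol, lcs, mei-W68 and ninaE. Beyond that, Sec13 was 0.0867 with upper quartile factors, Hsc70-4 was -0.00034 and alphaTub84B -0.24 with total counts, and alphaTub84B was -0.00766 with no filter and -0.0406 to 0.0648 with 1 library left out, below 0 without male 2, female 1 or female 2. None of these was called. Counts by list moved by over 1.5 times with other factors for cytoplasmic ribosomal proteins (44 higher; 79 with upper quartile factors, 25 with total counts), chorion genes (3 lower; 1 with RLE or upper quartile factors), initiation factors (7 lower; 4 RLE, 3 upper quartile, 12 total counts), proteasome (26 lower; 17 upper quartile), the tricarboxylic acid cycle (5 higher; 9 upper quartile, 2 total counts), and, with total counts, lipid genes (3 to 7 lower) and autophagy genes (4 to 8 lower).

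Same-numbered males and females deviated from their group means with correlations of -0.018, 0.020 and 0.022. These show no large shared shift. They cannot settle whether same-numbered libraries came from the same experiment, which the labels do not state. A replicate block gave 5261 genes higher and 3188 lower, left mei-W68 uncalled at an adjusted p of 0.0554, gave 8 chemoreceptor and 18 cuticle genes higher and 1 chorion gene and 16 long noncoding RNAs lower, and left 0 genes in the test of change with age. That test gave 2 genes with RLE factors and 0 to 91 genes with 1 library of 30 days left out. The floor of 3 counts planned for a sex at 0 was replaced by 200 counts in each library after the data were seen, because genes expected at 20 to 30 counts were listed at 0 in up to 50.4% of cases. Calls that rest on fewer than about 100 counts are limited by those zeros, and 3 libraries a sex limit calls with wide spread, as for the chorion genes. Whole-fly RNA does not show in which organ a gene differed.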

Other observations

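Genes with no family in the lists were among the largest changes. CG42704, on the X, stood at 345, 98.4 and 123 FPKM in females and 0, 0.301 and 0 FPKM in males (-11.33, SE 1.04, adjusted p = 4.67e-05). CG31262 stood at 27.4, 24.9 and 20.8 FPKM in females and 0, 0.0644 and 0 FPKM in males (-10.58, SE 0.82, adjusted p = 2.52e-05), and CG13690 at 95.04, 100.2 and 86.2 FPKM and 0, 0.412 and 0 FPKM (-9.88, SE 0.98, adjusted p = 6.75e-05). Each had 3 to 10 counts in male 2 and 0 in males 1 and 3, so the size of these changes rests on male counts of the range in which zeros were frequent. CG43090 and CG42705, also on the X, were listed at 0 in all males, with 62.6, 14.6 and 41.2 FPKM and 30.1, 16.3 and 15.7 FPKM in the females. Of the larval storage proteins, Lsp1beta, a hexamerin of the fat body, stood at 8.48, 8.26 and 3.50 FPKM in males and 0.424, 0.0762 and 0.0253 FPKM in females (5.27, SE 1.04, adjusted p = 0.00211).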
